A study of Mus musculus with 180 samples.

Results

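The 10 genes described here encode transcription factors of the interferon regulatory factor (IRF) family, Irf1, Irf2, Irf3, Irf5, Irf8 and Irf9, and of the signal transducer and activator of transcription (STAT) family, Stat3, Stat5a, Stat5b and Stat6. They were picked out by gene symbol and are 10 of 13820 genes in the deposited tables. All 10 passed the filter on low values in each of 15 tissues, which gave 150 tests per comparison. Bulk RNA was measured by 3′ tag sequencing in 15 tissues of 12 female mice aged 6 weeks, with 180 libraries in all. Mice 9 to 12 were of the B6.129S-Tnftm1Gkl/J strain, in which the Tnf gene is disrupted in all cells, and had received 5 mg/kg lipopolysaccharide (LPS), a bacterial cell wall component. The wild-type LPS group, mice 5 to 8, was C57BL/6J and had the same dose, and the PBS group, mice 1 to 4, was C57BL/6J without LPS. All tissues were taken at 12 hours, after perfusion with PBS and 1 mM EDTA. The design held no TNF-deficient mice without LPS, so for each difference between the LPS groups an effect on the response cannot be told apart from one of genotype or strain background that was there before LPS.

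IRF and STAT proteins carry cytokine and pathogen signals from the cytoplasm or receptor to DNA. Interferons activate Janus kinases, which phosphorylate STAT proteins; a STAT dimer then binds gamma-activated sites (GAS), and the complex ISGF3, in which IRF9 binds DNA together with a pair of STAT proteins, binds interferon-stimulated response elements (ISRE). IRF3 and IRF5 are switched on after translation, downstream of Toll-like receptor adaptors, whereas IRF1 and IRF8 act largely through how much of them is made. STAT3 serves the interleukin-6 family and the liver acute-phase response, STAT5A and STAT5B serve growth hormone, prolactin and several interleukins, and STAT6 serves interleukins 4 and 13. Messenger RNA levels, as measured here, do not report phosphorylation or activity of these proteins.

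The GENCODE M21 annotation of GRCm38 (mm10) places Irf1 on chromosome 11 (53770014 to 53778374, plus strand), Irf8 on chromosome 8 (120736358 to 120756694, plus strand) and Irf9 on chromosome 14 (55603571 to 55610030, plus strand). Stat5b (100780731 to 100850724, minus strand), Stat5a (100859351 to 100885169, plus strand) and Stat3 (100885098 to 100939540, minus strand) are neighbours on chromosome 11. Stat5a and Stat3 converge and their annotated 3′ ends overlap. Reads in 3′ tag data fall at such ends, and no source used here says whether counting was stranded, so reads of Stat3 and Stat5a in the shared stretch cannot be told apart. Irf2 (46739732 to 46847458, plus strand) is on chromosome 8 as well, Irf3 (44997648 to 45002848, plus strand) on chromosome 7, Irf5 (29526625 to 29541871, plus strand) on chromosome 6 and Stat6 (127642986 to 127660957, plus strand) on chromosome 10. The 3′ ends of Irf5 and Stat6 overlap the opposite-strand genes Tnpo3 and Nab2, and that of Irf8 overlaps the same-strand gene Gm20388, so their reads could be shared in the same way. Stat5a and Stat5b are close paralogs, and reads that match both could have been split between them.

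The promoters of 5 members are shown, those of the 4 genes called in the most tissues with LPS (Stat3, Irf1, Irf9 and Irf8) and that of Irf2, the counterpart of Irf1. Each is the first RefSeq window listed for the gene (GRCm38.p6), of 250 bases before to 50 bases after an annotated start, read 5′ to 3′ on the gene's strand. Capitals mark matches to the GAS core TTCNNNGAA, the ISRE core GAAANNGAAA and the NF-kB consensus, on either strand, and no 2 of the marked matches overlap.
Irf1, chr11:53769764-53770063, plus strand: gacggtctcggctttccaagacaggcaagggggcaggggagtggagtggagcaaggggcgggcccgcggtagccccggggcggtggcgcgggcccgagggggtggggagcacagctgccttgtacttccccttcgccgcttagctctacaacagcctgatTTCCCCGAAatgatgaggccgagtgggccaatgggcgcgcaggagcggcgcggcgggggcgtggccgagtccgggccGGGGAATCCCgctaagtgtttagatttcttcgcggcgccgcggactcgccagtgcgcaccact
Irf2, chr8:46739495-46739794, plus strand: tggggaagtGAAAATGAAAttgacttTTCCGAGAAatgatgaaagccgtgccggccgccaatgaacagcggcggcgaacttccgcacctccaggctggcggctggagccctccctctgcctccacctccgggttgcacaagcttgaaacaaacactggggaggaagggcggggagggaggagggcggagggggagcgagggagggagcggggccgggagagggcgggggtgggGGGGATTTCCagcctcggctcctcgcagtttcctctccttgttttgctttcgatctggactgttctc
Irf8, chr8:120736108-120736407, plus strand: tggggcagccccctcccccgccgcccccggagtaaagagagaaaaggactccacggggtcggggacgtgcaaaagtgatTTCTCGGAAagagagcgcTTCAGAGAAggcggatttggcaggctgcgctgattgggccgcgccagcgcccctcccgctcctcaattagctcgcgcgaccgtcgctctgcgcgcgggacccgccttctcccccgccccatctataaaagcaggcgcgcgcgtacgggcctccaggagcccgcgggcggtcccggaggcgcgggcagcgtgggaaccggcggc
Irf9, chr14:55603735-55604034, plus strand: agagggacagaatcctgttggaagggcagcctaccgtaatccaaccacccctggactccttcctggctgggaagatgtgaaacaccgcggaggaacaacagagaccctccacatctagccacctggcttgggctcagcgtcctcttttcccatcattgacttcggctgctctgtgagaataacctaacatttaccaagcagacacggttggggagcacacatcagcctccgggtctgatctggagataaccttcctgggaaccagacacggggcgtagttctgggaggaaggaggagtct
Stat3, chr11:100939491-100939790, minus strand: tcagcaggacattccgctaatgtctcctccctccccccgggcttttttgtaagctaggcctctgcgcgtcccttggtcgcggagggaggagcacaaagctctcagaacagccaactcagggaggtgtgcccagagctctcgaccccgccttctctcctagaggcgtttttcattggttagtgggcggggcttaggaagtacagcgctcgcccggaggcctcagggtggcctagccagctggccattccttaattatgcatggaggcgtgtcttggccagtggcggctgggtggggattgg

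The Irf1 window held the GAS core at positions -90 to -82 from the start and an NF-kB match at -13 to -4. The Irf2 window held an ISRE core at -241 to -232, a GAS core at -224 to -216 and an NF-kB match at -17 to -8. The Irf8 window held a pair of GAS cores, at -171 to -163 and -153 to -145. No match stood in the Irf9 or Stat3 window, nor in the second windows of Irf1, Irf8 and Irf9. The Irf9 windows begin at 55603735 and 55604329, inside the annotated gene, which starts at 55603571. Sequence before that gene start was not searched. Of 32851 promoter windows in the RefSeq table, 8.30% held the GAS core, 3.44% the ISRE core and 8.46% the NF-kB consensus. In the windows of the other 5 members the only match was an NF-kB match at a second Stat5a start. A match is a description of letters and not of binding, and sites outside these windows were not searched.

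Total counts per library ranged from 311128 to 2573806. Of 45 defining genes, 3 for each tissue, 40 were highest in their own tissue and 5 ranked second, among them Hba-a1 in spleen behind bone marrow, and Plin1 and Adipoq each in 1 adipose tissue behind the other. Tnf signal was 10.8 to 107 over the TNF-deficient LPS libraries, 3.48 to 75.2 over the wild-type LPS libraries and 1.86 to 18.4 over the PBS libraries. Tissue by tissue, TNF-deficient LPS values lay above all wild-type LPS values except in liver, thymus and bone marrow, where the ranges overlapped. In lung Tnf signal was 89.6 to 107 in TNF-deficient LPS mice and 11.7 to 28.7 in wild-type LPS mice. The labels do not say which stretch of Tnf the knockout lacks, so a 3′ tag does not check the genotype. Values are the authors' deposited signal, which is scaled per library; 1 count stood for a signal of 0.322 to 3.6, and member values rested on as few as 3 counts in a library. Mouse 6 of the wild-type LPS group stood apart for several members and enters both comparisons. It had the lowest signal of the 4 wild-type LPS mice for Irf1 in 15 of 15 tissues, for Irf8 in 13, for Stat3 in 12, and for Irf9 and Stat5a in 9. Mouse 7 had the highest signal for Irf1 in 12 tissues, for Irf8 in 10 and for Stat3 in 9, but the lowest for Irf3 in 9. Total counts of mouse 6 had a median of 1097804 over tissues and were the lowest of its group in 5 of 15 tissues. Results are therefore also given without mouse 6. This mouse was picked by its member values and not by a quality measure. Where it was lowest, leaving it out raises the wild-type LPS mean by construction. P-values without it are thus a description and not added support. Counts of calls between the LPS groups are also given without mouse 7.

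**Figure D1:**
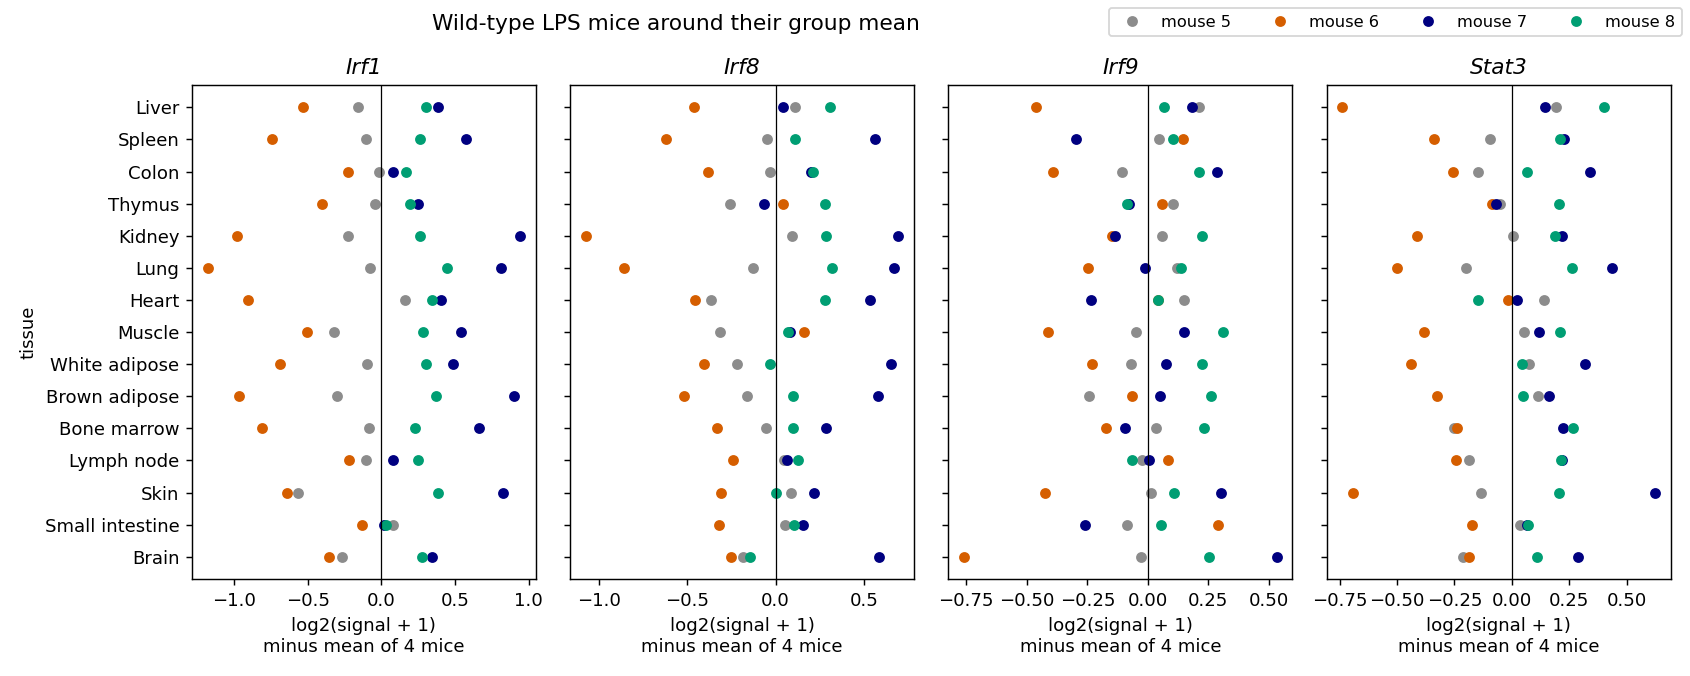
Each panel shows, for 1 gene and 15 tissues (rows), the log2(signal + 1) of each of the 4 wild-type LPS mice minus the mean of the 4. Mouse 6 lies furthest left in all 15 rows for Irf1 and in 13 rows for Irf8, and mouse 7 furthest right in 12 and 10 rows.

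LPS raised Stat3, Irf1, Irf9 and Irf8 in 8 or more of 15 tissues each, and Stat6 had no call in any tissue. Against PBS, 56 of 150 member tests were called higher and 5 lower (limma, Benjamini-Hochberg adjusted p under 0.05 over all genes of a tissue), where 9.47% of all 200124 gene tests were called higher and 10.4% lower. The median log2 difference was 0.20 over member tests and -0.019 over all tests. Stat3 was called higher in 15 tissues, Irf1 in 14, Irf9 in 11, Irf8 in 8, Irf2 and Irf5 in 3 each and Stat5a in 2; calls of lower signal were limited to Irf3 and Stat5b in 2 tissues each and Irf2 in 1. Without mouse 6 there were 61 higher and 6 lower calls, against 9.82% and 10.6% of all tests. With edgeR on the recovered counts there were 62 higher and 4 lower calls, against 13.7% and 13.4%.

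Between the groups given LPS, 1 member test was called higher and 10 lower in TNF-deficient mice than in wild-type mice, against 3.24% and 2.32% of all tests. The median log2 difference was 0.06 over member tests and 0.016 over all tests. The lower calls were Stat3 in 5 tissues, Irf1 in 3 and Stat5a in 2, and the higher call was Irf3 in colon. Without mouse 6 the counts were 4 higher and 23 lower, against 4.33% and 3.40% of all tests, and Stat3 then made up 12 of the lower calls and Irf1 6. Without mouse 7 there were 5 lower calls, 4 of them Stat3 and none Irf1. The share of all tests called without mouse 7 is not given here, so that count describes the members only. With edgeR there were 3 higher and 17 lower calls, against 4.52% and 4.73%.

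**Figure D2:**
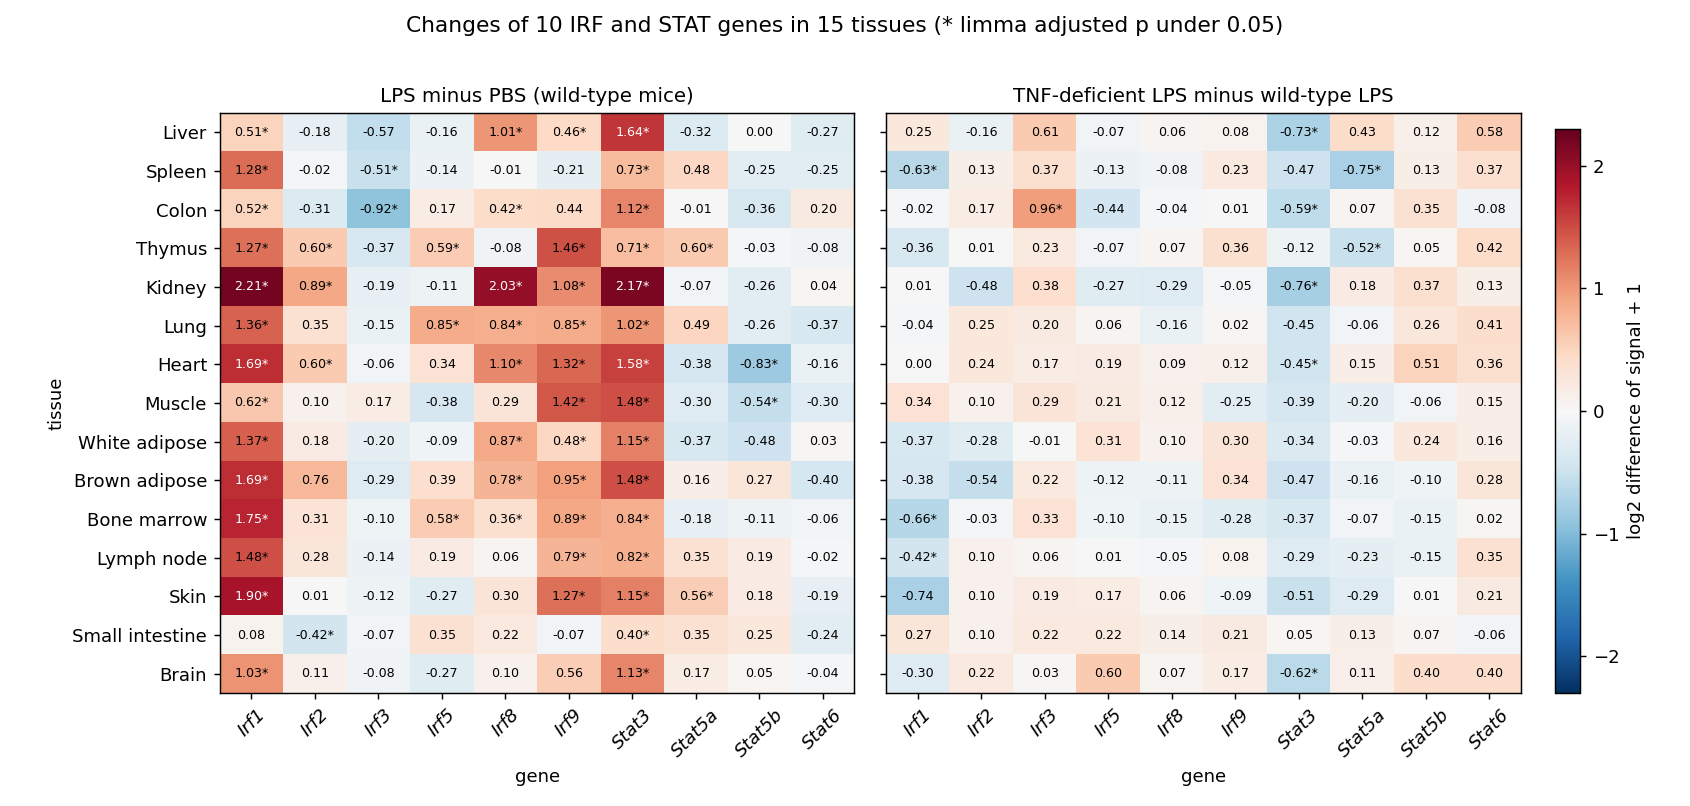
Log2 differences of signal + 1 for 10 genes (columns) in 15 tissues (rows), with LPS minus PBS on the left and TNF-deficient LPS minus wild-type LPS on the right; an asterisk marks a limma adjusted p under 0.05. Irf1 and Stat3 form the continuous red columns of the left panel, with 14 and 15 calls, and Stat3 the mostly blue column of the right panel, with 5 calls and 14 of 15 differences below 0.

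For LPS against PBS, 6 of 10 members were called in thymus, where 18.5% of all tested genes were called in either direction, and 6 in heart (22.2%). Counts of 5 were found in kidney (38.0% of genes), lung (25.6%) and bone marrow (23.0%). Counts of 4 were found in liver (25.2%), colon (17.2%), muscle (12.5%), white adipose tissue (13.7%), brown adipose tissue (18.4%) and skin (17.9%). Spleen (15.8%) and inguinal lymph node (22.5%) had 3 called members each, and small intestine (23.3%) and brain (4.35%) had 2 each. In small intestine, inguinal lymph node and kidney the members' share was near that of all genes. In the other tissues it was higher, but a single call shifts the share of 10 members strongly.

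For TNF-deficient LPS against wild-type LPS, 2 members were called in spleen (4.14% of genes) and 2 in colon (3.82%). A count of 1 was found in liver (9.40%), thymus (4.46%), kidney (20.0%), heart (5.67%), bone marrow (6.12%), inguinal lymph node (3.12%) and brain (1.02%). None was called by limma in lung (5.99%), muscle (3.97%), white adipose tissue (2.86%), brown adipose tissue (2.94%), skin (2.80%) or small intestine (7.12%).

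Irf1, which is induced by interferons and drives genes of antigen processing and presentation, rose with LPS in 14 of 15 tissues, with a median log2 difference of 1.36 over tissues. The largest difference was in kidney. Irf1 signal there was 157, 194, 125 and 146 in the TNF-deficient LPS mice, 130.1, 76.9, 293 and 183 in the wild-type LPS mice and 34.2, 32.3, 31.1 and 30.6 in the PBS mice. All 8 LPS mice lay above all PBS mice, and the lowest LPS value was that of mouse 6 (log2 difference 2.21, SE 0.23, adjusted p = 2e-08 for LPS against PBS). Bulk tissue does not tell more RNA per cell apart from more cells of a type. In lung the signal was 264, 275, 197 and 206 in TNF-deficient LPS mice, 227, 105, 422 and 327 in wild-type LPS mice and 102, 109, 90.6 and 73.9 in PBS mice. Mouse 6 lay within the PBS range there and the other wild-type LPS mice above it (log2 difference 1.36, SE 0.25, adjusted p = 9.5e-05; without mouse 6 1.75 with SE 0.15 and adjusted p = 3.5e-11). Skin (1.90), bone marrow (1.75), brown adipose tissue (1.69), heart (1.69) and inguinal lymph node (1.48) followed kidney in the size of the log2 difference. The smallest called differences were in liver (0.51, adjusted p = 0.028), colon (0.52, adjusted p = 0.0027) and muscle (0.62, adjusted p = 0.018). The liver call was lost without mouse 1, 7 or 8 (difference 0.38 to 0.68) and the muscle call without mouse 7 or 8 (0.44 to 0.79).

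Small intestine was the exception. Irf1 signal there was 120.4, 144, 111 and 154 in TNF-deficient LPS mice, 115, 98.9, 110.2 and 111 in wild-type LPS mice and 74.4, 122, 98.9 and 124 in PBS mice, and all 3 groups overlapped (log2 difference 0.08, SE 0.14, adjusted p = 0.74; 95% interval -0.22 to 0.38). In PBS mice small intestine had the highest mean Irf1 signal of the 15 tissues, 105 ± 23.3 (SD, n = 4), and brain the lowest, 15.4 ± 2.27.

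With all mice, limma called Irf1 lower in TNF-deficient than in wild-type LPS mice in 3 lymphoid or blood-forming tissues. In spleen the signal was 145, 152, 143 and 172 in TNF-deficient LPS mice, 219.5, 141, 352 and 283 in wild-type LPS mice and 106, 92.1, 103 and 86.2 in PBS mice. Wild-type mice 5, 7 and 8 lay above all TNF-deficient mice and mouse 6 below all of them (log2 difference -0.63, SE 0.17, adjusted p = 0.025; without mouse 6 -0.87 with SE 0.14 and adjusted p = 7.3e-05). In bone marrow the signal was 109.9, 145, 111 and 88.6 in TNF-deficient LPS mice, 168, 101, 282 and 208 in wild-type LPS mice and 47.3, 56.3, 53.4 and 51.9 in PBS mice, with mouse 6 inside the TNF-deficient range (log2 difference -0.66, SE 0.19, adjusted p = 0.039; without mouse 6 -0.93 with SE 0.15 and adjusted p = 0.00011). In inguinal lymph node it was 206, 211, 193 and 189.9 in TNF-deficient LPS mice, 249, 231, 283 and 318 in wild-type LPS mice and 97.9, 95.6, 86.1 and 103 in PBS mice. The 3 groups did not overlap in that tissue (log2 difference -0.42, SE 0.11, adjusted p = 0.036). Each of these calls was lost when any of several mice was left out, mice 7, 8 and 11 among them for all 3; the differences ran -0.87 to -0.43 in spleen, -0.93 to -0.44 in bone marrow and -0.49 to -0.34 in inguinal lymph node. Without mouse 7 no tissue kept a call. The median Irf1 difference over tissues was -0.3 with all mice, -0.44 without mouse 6 and -0.08 without mouse 7. With all mice the difference was below 0 in 10 tissues and above 0 in 5, where it reached 0.34. Without mouse 6 it was above 0 in liver (0.07), muscle (0.17) and small intestine (0.23), none of them called. In kidney, heart, lung and colon the differences were 0.01, 0.00, -0.04 and -0.02, and none was called. Without mouse 6 they were -0.31, -0.30, -0.44 and -0.09, again with none called. The skin difference, -0.74, was larger than the called ones but did not pass with all mice (adjusted p = 0.12). Without mouse 6 skin passed (-0.95 with SE 0.24 and adjusted p = 0.023), as did thymus (-0.50 with SE 0.13 and adjusted p = 0.01) and white adipose tissue (-0.60 with SE 0.17 and adjusted p = 0.04). With edgeR and all mice, skin (adjusted p = 0.049) and thymus (adjusted p = 0.04) passed too.

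Sums of some of the marker lists are given for the 3 tissues in which Irf1 was called between the LPS groups. In spleen the summed signal of 8 neutrophil markers was 1890 to 2470 in TNF-deficient LPS mice, 860 to 2000 in wild-type LPS mice and 451 to 566 in PBS mice, with 5 of 8 called higher by LPS. That of 7 B cell markers was 1390 to 1600 in TNF-deficient LPS mice, 802 to 1380 in wild-type LPS mice and 2020 to 2320 in PBS mice, with 6 of 7 called lower by LPS. That of 8 T cell markers was 275 to 347 in TNF-deficient LPS mice, 258 to 351 in wild-type LPS mice and 534 to 660 in PBS mice, with 8 of 8 called lower by LPS. In inguinal lymph node the T cell sum was 985 to 1210 in TNF-deficient LPS mice, 807 to 865 in wild-type LPS mice and 1120 to 1390 in PBS mice, with 6 of 8 called lower by LPS. The B cell sum there was 1190 to 1480 in TNF-deficient LPS mice, 985 to 1200 in wild-type LPS mice and 1430 to 1680 in PBS mice, with 6 of 7 called lower. In bone marrow the neutrophil sum was 9560 to 14800 in TNF-deficient LPS mice, 10800 to 13300 in wild-type LPS mice and 15300 to 16400 in PBS mice, with 6 of 8 called lower by LPS. The sum of the 3 natural killer cell markers in the tables was 175 to 231 in TNF-deficient LPS mice, 101 to 193 in wild-type LPS mice and 19 to 31 in PBS mice in bone marrow, with 3 of 3 called higher. In spleen this sum was 196 to 250, 138 to 220 and 73 to 107 in the same 3 groups. In inguinal lymph node it was 123 to 205, 109 to 219 and 26.5 to 50.1. The macrophage and monocyte sum in bone marrow was 1100 to 1540, 1430 to 1710 and 861 to 963 in the same 3 groups. Of its 11 markers, 2 were called higher and 2 lower by LPS. No marker in the tables was at 0 in all libraries of a tissue. The part of these markers in the Irf1 differences was not tested.

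**Figure D3:**
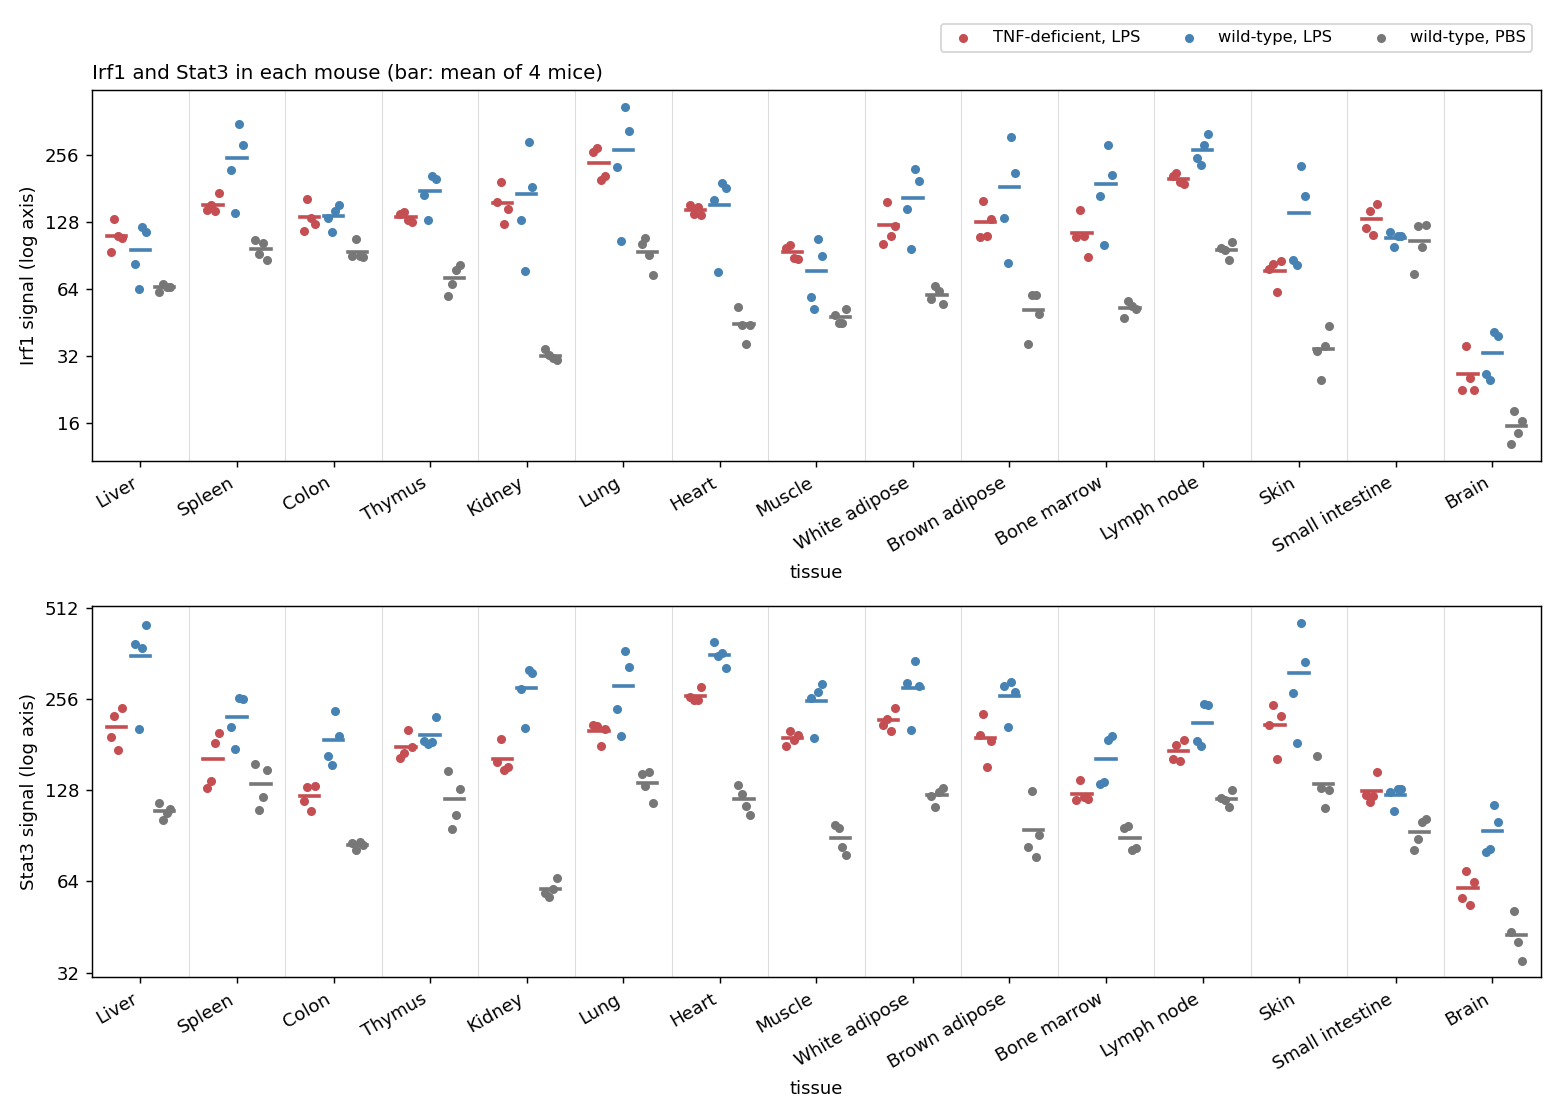
Signal (log axis) of Irf1 (top) and Stat3 (bottom) in each mouse by tissue, with TNF-deficient LPS mice in red, wild-type LPS mice in blue and PBS mice in grey; points are mice and bars the means of 4. Wild-type LPS mice lie above PBS mice for Stat3 in all 15 tissues (kidney 206 to 320.5 in wild-type LPS mice against 57.0 to 65.5 in PBS mice), and in small intestine the Irf1 groups overlap.

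Irf2, which binds the same elements as Irf1 and can act as its antagonist, changed in fewer tissues. It was called higher with LPS in kidney, thymus and heart and lower in small intestine. In kidney Irf2 signal was 16.2, 22.8, 22.2 and 22.8 in TNF-deficient LPS mice, 34.7, 25.6, 27.1 and 31.4 in wild-type LPS mice and 17.4, 15.9, 17.8 and 11.4 in PBS mice. Every wild-type LPS mouse lay above every PBS mouse and every TNF-deficient mouse (log2 difference 0.89, SE 0.18, adjusted p = 0.00032 for LPS against PBS; log2 difference -0.48, SE 0.18, adjusted p = 0.066 between the LPS groups). In small intestine it was 40.1, 38.7, 39.4 and 44.6 in TNF-deficient LPS mice, 45.1, 38.0, 36.0 and 32.8 in wild-type LPS mice and 48.7, 51.5, 53.5 and 49.3 in PBS mice, with all PBS mice above all LPS mice (log2 difference -0.42, SE 0.13, adjusted p = 0.022). The thymus difference of 0.60 was not called without mouse 2, 3, 5 or 8 and ran 0.37 to 0.73. The heart difference of 0.60 was not called without mouse 1, 4, 5 or 7 (0.46 to 0.70), nor the small intestine one without mouse 3 or 8 (-0.50 to -0.35). Kidney kept its call whichever mouse was left out. With all mice limma called no tissue between the LPS groups, whereas edgeR called kidney lower (adjusted p = 0.018), and without mouse 6 limma did too (-0.55 with SE 0.20 and adjusted p = 0.039).

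Irf8, which directs the development of monocytes, dendritic cells and B cells, rose with LPS in 8 tissues, most of all in kidney and not in the tissues where it was highest in PBS mice, spleen and inguinal lymph node, which were not called. Its PBS signal was highest in spleen (332 ± 24.3), inguinal lymph node (243 ± 13.3) and bone marrow (171 ± 11.8; SD, n = 4 each), 3 tissues whose ranges did not overlap. It was 26.0 to 33.6 on average in liver, muscle, both adipose tissues, skin, heart and kidney, whose neighbouring ranges overlapped, and 16.9 ± 1.99 in brain.

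In kidney Irf8 signal was 74.5, 108, 82.8 and 84.0 in TNF-deficient LPS mice, 113, 50.0, 172 and 129 in wild-type LPS mice and 22.3, 35.6, 18.4 and 27.8 in PBS mice. All LPS mice lay above all PBS mice, and mouse 6 was the lowest of them (log2 difference 2.03, SE 0.24, adjusted p = 1.9e-07 for LPS against PBS). In liver the signal was 85.0, 65.2, 67.6 and 67.0 in TNF-deficient LPS mice, 73.5, 49.1, 70.0 and 84.4 in wild-type LPS mice and 40.0, 31.2, 27.9 and 35.3 in PBS mice, again without overlap between LPS and PBS (log2 difference 1.01, SE 0.18, adjusted p = 7.6e-05). Heart (1.10), white adipose tissue (0.87), lung (0.84), brown adipose tissue (0.78), colon (0.42) and bone marrow (0.36) were also called higher. Both adipose calls were lost without mouse 7 (differences from 0.65 and 0.59), the colon call without mouse 1, 2, 5, 7 or 8 (0.35 to 0.55) and the bone marrow call without mouse 2, 3, 7 or 8 (0.26 to 0.47). In spleen, by contrast, the signal was 339, 306, 277 and 325 in TNF-deficient LPS mice, 316, 213, 484 and 353 in wild-type LPS mice and 364, 306, 334 and 322 in PBS mice, and the groups overlapped (log2 difference -0.01, SE 0.14, adjusted p = 0.96). No tissue was called between the LPS groups, where differences ran -0.29 to 0.14; without mouse 6, kidney was called lower (-0.65 with SE 0.17 and adjusted p = 0.004).

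Markers of cells known to carry Irf8, and those of neutrophils in lung, were summed in some of the tissues where Irf8 was called. In kidney, where 1 of 11 macrophage and monocyte markers was called higher and 1 lower by LPS, the summed signal of the 11 was 152 to 183 in TNF-deficient LPS mice, 119 to 156 in wild-type LPS mice and 144 to 174 in PBS mice. That of 7 B cell markers was 59.6 to 71 in TNF-deficient LPS mice, 58.7 to 74.8 in wild-type LPS mice and 58.6 to 70.7 in PBS mice, and 0 of 7 were called by limma. In liver the macrophage and monocyte sum was 351 to 407 in TNF-deficient LPS mice, 291 to 393 in wild-type LPS mice and 488 to 528 in PBS mice, with 5 of 11 called lower and 1 higher by LPS. In lung it was 391 to 688 in TNF-deficient LPS mice, 391 to 453 in wild-type LPS mice and 239 to 313 in PBS mice, with 3 of 11 called higher and 2 lower by LPS. The lung neutrophil sum was 4160 to 6730 in TNF-deficient LPS mice, 4210 to 4850 in wild-type LPS mice and 366 to 423 in PBS mice, with 8 of 8 neutrophil markers called higher. The sum of the 3 type 1 conventional dendritic cell markers in the tables was 50.3 to 59.6 in TNF-deficient LPS mice, 32.7 to 41.3 in wild-type LPS mice and 50.2 to 72 in PBS mice in liver, with 1 of 3 called lower by LPS. In lung it was 83.1 to 96.6 in TNF-deficient LPS mice, 71.8 to 121 in wild-type LPS mice and 160 to 203 in PBS mice, with 2 of 3 called lower and 1 higher. In kidney it was 27.4 to 32.7 in TNF-deficient LPS mice, 30 to 33 in wild-type LPS mice and 20.7 to 34 in PBS mice, with 0 of 3 called by limma. The sum of 5 plasmacytoid dendritic cell markers in kidney was 1030 to 1450 in TNF-deficient LPS mice, 1110 to 1400 in wild-type LPS mice and 1570 to 1710 in PBS mice, with 1 of 5 called lower. In PBS mice the same sum was 162 to 200 in spleen and 2480 to 2560 in heart. It was lower in spleen than in kidney or heart, so it cannot be read as an amount of these cells. The type 1 dendritic cell sum in PBS mice was 201 to 216 in brain and 124 to 144 in inguinal lymph node. The neutrophil sum in PBS mice was 442 to 493 in muscle and 366 to 423 in lung. The levels of these sums cannot be read as amounts of cells either. In brown adipose tissue the macrophage and monocyte sum was 237 to 302 in wild-type LPS mice and 177 to 234 in PBS mice. In white adipose tissue it was 276 to 366 in wild-type LPS mice and 495 to 601 in PBS mice. The part of these markers in the Irf8 values of liver, kidney and both adipose tissues was not tested. Their part in the lung values of Irf8 and Irf5 was not tested either.

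Irf5, which acts downstream of MyD88 in myeloid and B cells, was called higher with LPS in lung, bone marrow and thymus. In lung its signal was 46.5, 55.6, 69.5 and 59.7 in TNF-deficient LPS mice, 54.9, 46.9, 60.3 and 58.3 in wild-type LPS mice and 28.4, 30.9, 27.0 and 33.9 in PBS mice, with no overlap between LPS and PBS (log2 difference 0.85, SE 0.15, adjusted p = 8.9e-05). In bone marrow it was 74.8, 66.3, 74.8 and 79.1 in TNF-deficient LPS mice, 85.2, 74.2, 70.4 and 86.6 in wild-type LPS mice and 42.0, 45.9, 59.2 and 65.5 in PBS mice, again apart (log2 difference 0.58, SE 0.13, adjusted p = 0.0011). The thymus difference was 0.59 (adjusted p = 0.013) and was not called without mouse 4 or 8. Spleen had the highest PBS level, 146 ± 10.1, followed by inguinal lymph node, 88.2 ± 11.5 (SD, n = 4 each), and neither changed with a call. No tissue was called between the LPS groups, where differences ran -0.44 to 0.60.

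**Figure D4:**
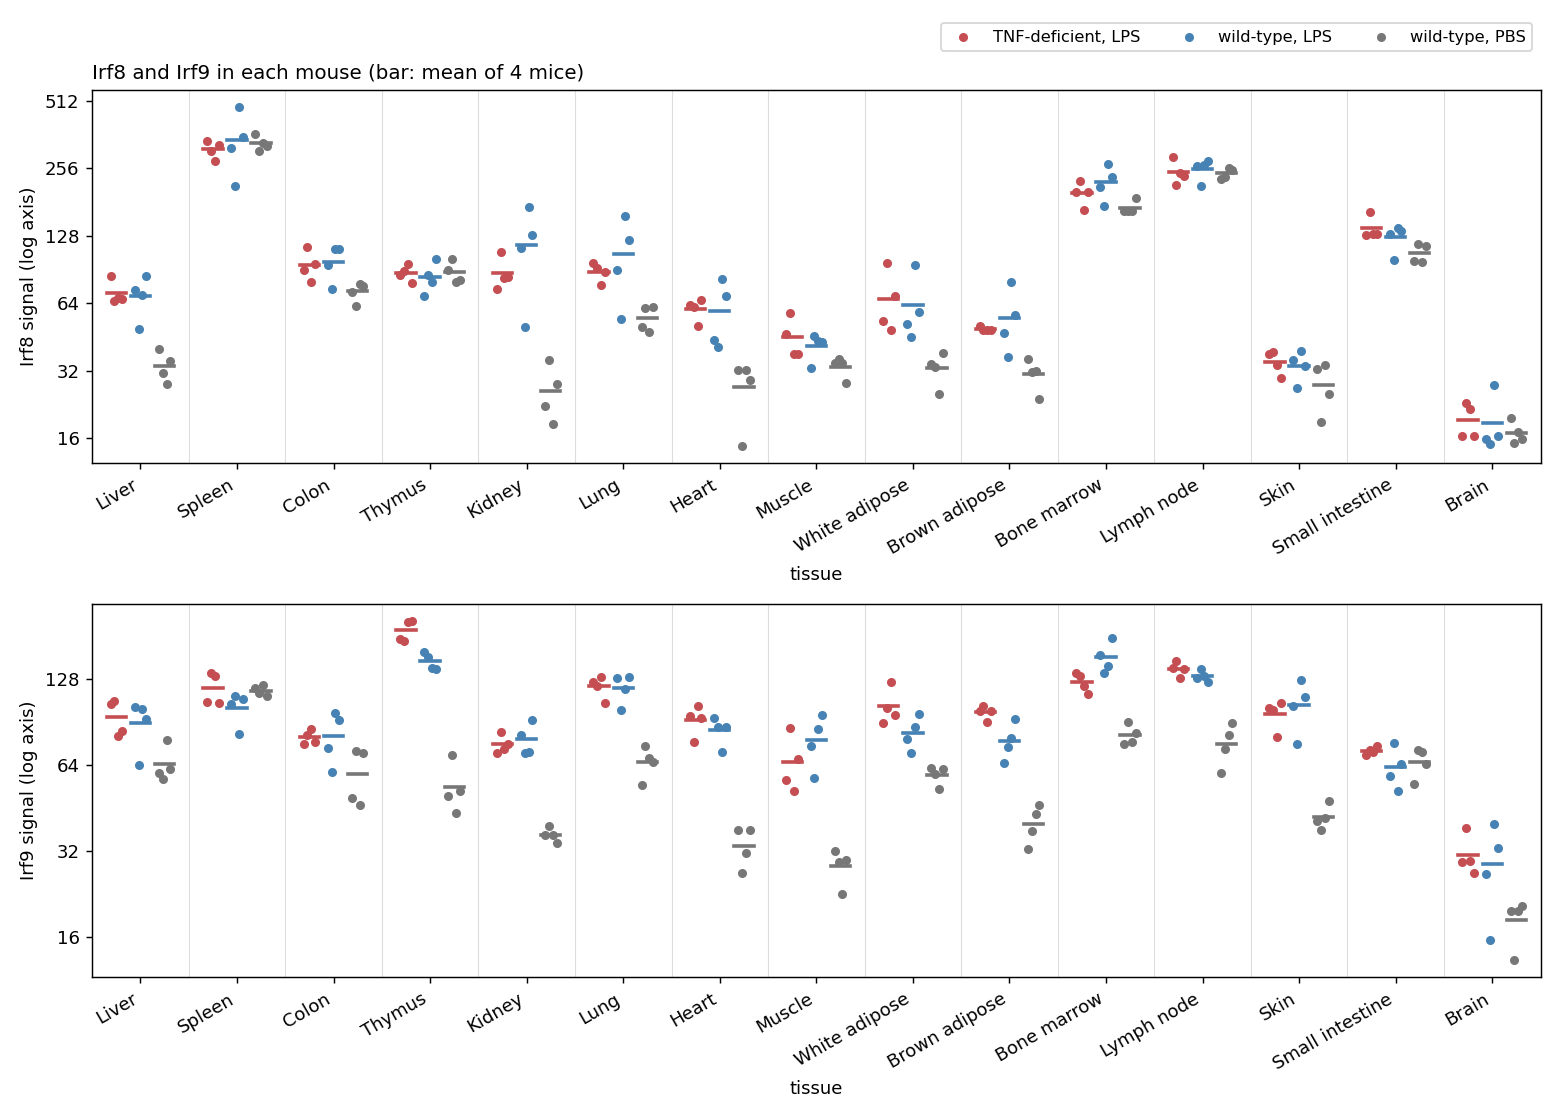
Signal (log axis) of Irf8 (top) and Irf9 (bottom) in each mouse by tissue, with TNF-deficient LPS mice in red, wild-type LPS mice in blue and PBS mice in grey; points are mice and bars the means of 4. For Irf8 all 3 groups overlap in spleen, and in kidney both LPS groups lie above the PBS mice. For Irf9 the 3 groups stand apart in thymus and overlap in small intestine.

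Irf9, the DNA-binding subunit of ISGF3, rose with LPS in 11 tissues. The largest difference was in thymus, where Irf9 signal was 176, 174, 201 and 204 in TNF-deficient LPS mice, 158, 153, 139 and 138 in wild-type LPS mice and 49.8, 69.4, 43.5 and 51.8 in PBS mice. The 3 groups did not overlap (log2 difference 1.46, SE 0.12, adjusted p = 8.9e-14 for LPS against PBS; log2 difference 0.36, SE 0.12, adjusted p = 0.09 between the LPS groups). The summed signal of 8 T cell markers in thymus was 3670 to 4050 in TNF-deficient LPS mice, 2090 to 2840 in wild-type LPS mice and 3890 to 4190 in PBS mice, with 7 of 8 called lower by LPS, and its part in the thymus values was not tested. In muscle Irf9 signal was 56.8, 86.1, 51.8 and 67.3 in TNF-deficient LPS mice, 74.2, 57.4, 85.3 and 95.3 in wild-type LPS mice and 32.0, 29.3, 22.6 and 29.6 in PBS mice, with all LPS mice above all PBS mice (log2 difference 1.42, SE 0.19, adjusted p = 9.6e-07). Heart (1.32), skin (1.27) and kidney (1.08) came next. The liver difference (0.46, adjusted p = 0.041) was not called when any of mice 1, 2, 4, 5, 7 and 8 was left out, nor the white adipose one (0.48, adjusted p = 0.034) without 2, 3, 5, 7 or 8.

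Spleen, which had the highest PBS level of Irf9 (116 ± 4.42; SD, n = 4), was not called. Its signal was 106, 134, 131 and 105 in TNF-deficient LPS mice, 104, 111, 81.7 and 108 in wild-type LPS mice and 118, 114, 121 and 112 in PBS mice, with every wild-type LPS mouse below every PBS mouse and mouse 7 the lowest (log2 difference -0.21, SE 0.13, adjusted p = 0.33). Small intestine had 69.4, 72.0, 71.1 and 74.3 in TNF-deficient LPS mice, 58.4, 75.9, 51.7 and 64.5 in wild-type LPS mice and 54.9, 71.9, 71.1 and 64.4 in PBS mice, and the LPS and PBS groups overlapped (log2 difference -0.07, SE 0.13, adjusted p = 0.74). Colon (0.44) and brain (0.56) were called with edgeR and without mouse 6 but not by limma with all mice. No tissue was called by limma between the LPS groups. With edgeR thymus was (adjusted p = 0.046), and without mouse 6 bone marrow was, with a log2 difference of -0.34 with SE 0.10 and adjusted p = 0.034.

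Irf3, the latent factor that TBK1 activates to turn on interferon beta, was not called higher with LPS by limma or edgeR in any tissue. Its difference was below 0 in 14 of 15 tissues and was called in colon and spleen. In colon Irf3 signal was 36.6, 39.7, 31.3 and 29.7 in TNF-deficient LPS mice, 18.7, 24.1, 10.7 and 17.4 in wild-type LPS mice and 29.6, 42.3, 29.6 and 32.7 in PBS mice. The wild-type LPS mice lay below every mouse of the other groups (log2 difference -0.92, SE 0.22, adjusted p = 0.0027 for LPS against PBS; log2 difference 0.96, SE 0.22, adjusted p = 0.0078 between the LPS groups). The wild-type LPS mice are shared by both comparisons, and the lowest of them, mouse 7, rested on 11 counts. Both colon calls held whichever mouse was left out (-1.08 to -0.71 and 0.75 to 1.12). In spleen the signal was 40.5, 42.3, 44.3 and 46.6 in TNF-deficient LPS mice, 38.2, 36.7, 26.7 and 32.5 in wild-type LPS mice and 53.2, 51.9, 45.1 and 42.1 in PBS mice (log2 difference -0.51, SE 0.18, adjusted p = 0.044). That call was lost without mouse 1, 2, 3, 7 or 8 (-0.58 to -0.41) and with edgeR (adjusted p = 0.062). In liver the signal was 35.9, 47.5, 45.0 and 45.8 in TNF-deficient LPS mice, 25.9, 42.5, 23.8 and 23.7 in wild-type LPS mice and 42.0, 31.2, 50.2 and 47.6 in PBS mice. Mouse 6 lay within the ranges of the other groups and mice 5, 7 and 8 below them. Neither liver comparison was called with all mice, and without mouse 6 both were (-0.76 with SE 0.21 and adjusted p = 0.0073 for LPS against PBS; 0.80 with SE 0.21 and adjusted p = 0.011 between the LPS groups). The Irf3 difference between the LPS groups was above 0 in 14 of 15 tissues. The same wild-type LPS mice enter this count and that for LPS against PBS, with opposite sign. Sign counts over tissues, here and for other members, rest on the same mice and are not counts of independent results.

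Stat3, which carries interleukin-6 family signals and drives the acute-phase response, rose with LPS in all 15 tissues, and each call held whichever mouse was left out. The differences ran 0.40 in small intestine to 2.17 in kidney, with a median of 1.13. In kidney Stat3 signal was 159, 189, 150.0 and 152 in TNF-deficient LPS mice, 276, 206, 320.5 and 313 in wild-type LPS mice and 58.6, 57.0, 60.4 and 65.5 in PBS mice. The 3 groups did not overlap (log2 difference 2.17, SE 0.12, adjusted p = 1.8e-13 for LPS against PBS). In liver it was 193, 226, 174 and 239 in TNF-deficient LPS mice, 391, 204, 378 and 451 in wild-type LPS mice and 116, 102, 108 and 111 in PBS mice. All LPS mice lay above all PBS mice, and mouse 6 lay within the TNF-deficient range (log2 difference 1.64, SE 0.17, adjusted p = 4.2e-09). Every wild-type LPS mouse lay above every PBS mouse in all 15 tissues, whereas TNF-deficient LPS mice overlapped PBS mice in spleen and skin. Heart (1.58), muscle (1.48) and brown adipose tissue (1.48) followed liver. The smallest rise was in small intestine, where the signal was 124, 117, 123 and 148 in TNF-deficient LPS mice, 126, 109, 129 and 129.5 in wild-type LPS mice and 81.5, 88.7, 100.4 and 103 in PBS mice, still without overlap between LPS and PBS (log2 difference 0.40, SE 0.11, adjusted p = 0.011).

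Stat3 was lower in TNF-deficient than in wild-type LPS mice in liver, colon, kidney, heart and brain, and its difference was below 0 in 14 of 15 tissues. The kidney difference was the largest (log2 difference -0.76, SE 0.12, adjusted p = 4.7e-05), and the liver one was close to it (log2 difference -0.73, SE 0.17, adjusted p = 0.0035; without mouse 6 -0.97 with SE 0.13 and adjusted p = 1.5e-06). In heart Stat3 signal was 262, 255, 254 and 282 in TNF-deficient LPS mice, 396, 355, 365 and 324 in wild-type LPS mice and 134, 125, 114 and 106 in PBS mice, and the 3 groups stood apart (log2 difference -0.45, SE 0.09, adjusted p = 0.003). In colon it was 118, 131, 109 and 133 in TNF-deficient LPS mice, 167, 155, 234 and 194 in wild-type LPS mice and 85.8, 81.3, 86.1 and 84.4 in PBS mice, also apart (log2 difference -0.59, SE 0.12, adjusted p = 0.0034). In brain it was 56.4, 69.1, 53.5 and 63.9 in TNF-deficient LPS mice, 80.4, 81.7, 114 and 101 in wild-type LPS mice and 43.5, 50.9, 40.4 and 35.0 in PBS mice. These 3 groups stood apart too (log2 difference -0.62, SE 0.14, adjusted p = 0.023), but the call was lost without mouse 7, 8 or 11 (-0.69 to -0.52). Small intestine was the tissue with a difference above 0 (0.05, adjusted p = 0.87). Without mouse 6, spleen, lung, muscle, skin, bone marrow and both adipose tissues joined the 5 (limma), with differences of -0.74 in skin to -0.44 in bone marrow. With edgeR and all mice, spleen, lung, muscle and bone marrow joined the 5. The neutrophil sum in kidney was 268 to 301 in TNF-deficient LPS mice, 306 to 395 in wild-type LPS mice and 229 to 325 in PBS mice. In colon it was 409 to 471 in TNF-deficient LPS mice, 509 to 671 in wild-type LPS mice and 362 to 456 in PBS mice, without overlap between the LPS groups, and 1 of 8 markers was called higher by LPS. In liver it was 678 to 804 in TNF-deficient LPS mice, 654 to 779 in wild-type LPS mice and 432 to 588 in PBS mice, and in brain it was 212 to 348 in TNF-deficient LPS mice, 191 to 241 in wild-type LPS mice and 198 to 220 in PBS mice. In heart it was 377 to 487 in TNF-deficient LPS mice, 371 to 493 in wild-type LPS mice and 353 to 439 in PBS mice, and its part in the Stat3 differences was not tested.

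Stat5a and Stat5b, which transmit growth hormone, prolactin and interleukin signals, were called in different tissues. Stat5a was called higher with LPS in thymus and skin. In thymus its signal was 109, 95.8, 91.8 and 82.2 in TNF-deficient LPS mice, 138, 94.8, 161 and 159 in wild-type LPS mice and 100.5, 100.4, 75.4 and 82.1 in PBS mice. Mouse 6 lay within the range of the other groups and mice 5, 7 and 8 above it (log2 difference 0.60, SE 0.14, adjusted p = 0.00077 for LPS against PBS; log2 difference -0.52, SE 0.14, adjusted p = 0.016 between the LPS groups). The difference between the LPS groups was not called without mouse 7, 8 or 12 (-0.68 to -0.43). In spleen Stat5a signal was 42.5, 32.9, 34.4 and 29.3 in TNF-deficient LPS mice, 63.1, 57.5, 62.8 and 52.3 in wild-type LPS mice and 42.9, 38.5, 40.8 and 45.2 in PBS mice. Wild-type LPS mice lay above all mice of the other groups (log2 difference -0.75, SE 0.17, adjusted p = 0.0076 between the LPS groups), and the LPS-against-PBS difference did not pass with limma (0.48, adjusted p = 0.052) but did with edgeR (adjusted p = 0.021). The skin call (0.56, adjusted p = 0.04) was lost without any of mice 2, 3, 4, 5, 7 and 8. White adipose tissue had the highest PBS level of Stat5a, 113 ± 34.3, whose range overlapped that of thymus, 89.6 ± 12.8 (SD, n = 4 each).

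Stat5b was called lower with LPS in heart and muscle. In heart its signal was 27.6, 35.9, 27.9 and 35.4 in TNF-deficient LPS mice, 20.4, 26.2, 23.7 and 17.4 in wild-type LPS mice and 37.7, 35.8, 36.8 and 48.8 in PBS mice. Wild-type LPS mice lay below all PBS mice (log2 difference -0.83, SE 0.18, adjusted p = 0.00077 for LPS against PBS), and the difference between the LPS groups did not pass (0.51, adjusted p = 0.092; without mouse 6 0.60 with SE 0.19 and adjusted p = 0.04). In muscle, which had the highest PBS level of Stat5b, it was 72.4, 81.6, 64.0 and 93.0 in TNF-deficient LPS mice, 72.4, 100.5, 71.7 and 79.2 in wild-type LPS mice and 127, 100.3, 149 and 97.7 in PBS mice. Mouse 6 overlapped the PBS range there (log2 difference -0.54, SE 0.16, adjusted p = 0.022), and the call was lost without mouse 1, 3, 5 or 7 (-0.64 to -0.42).

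**Figure D5:**
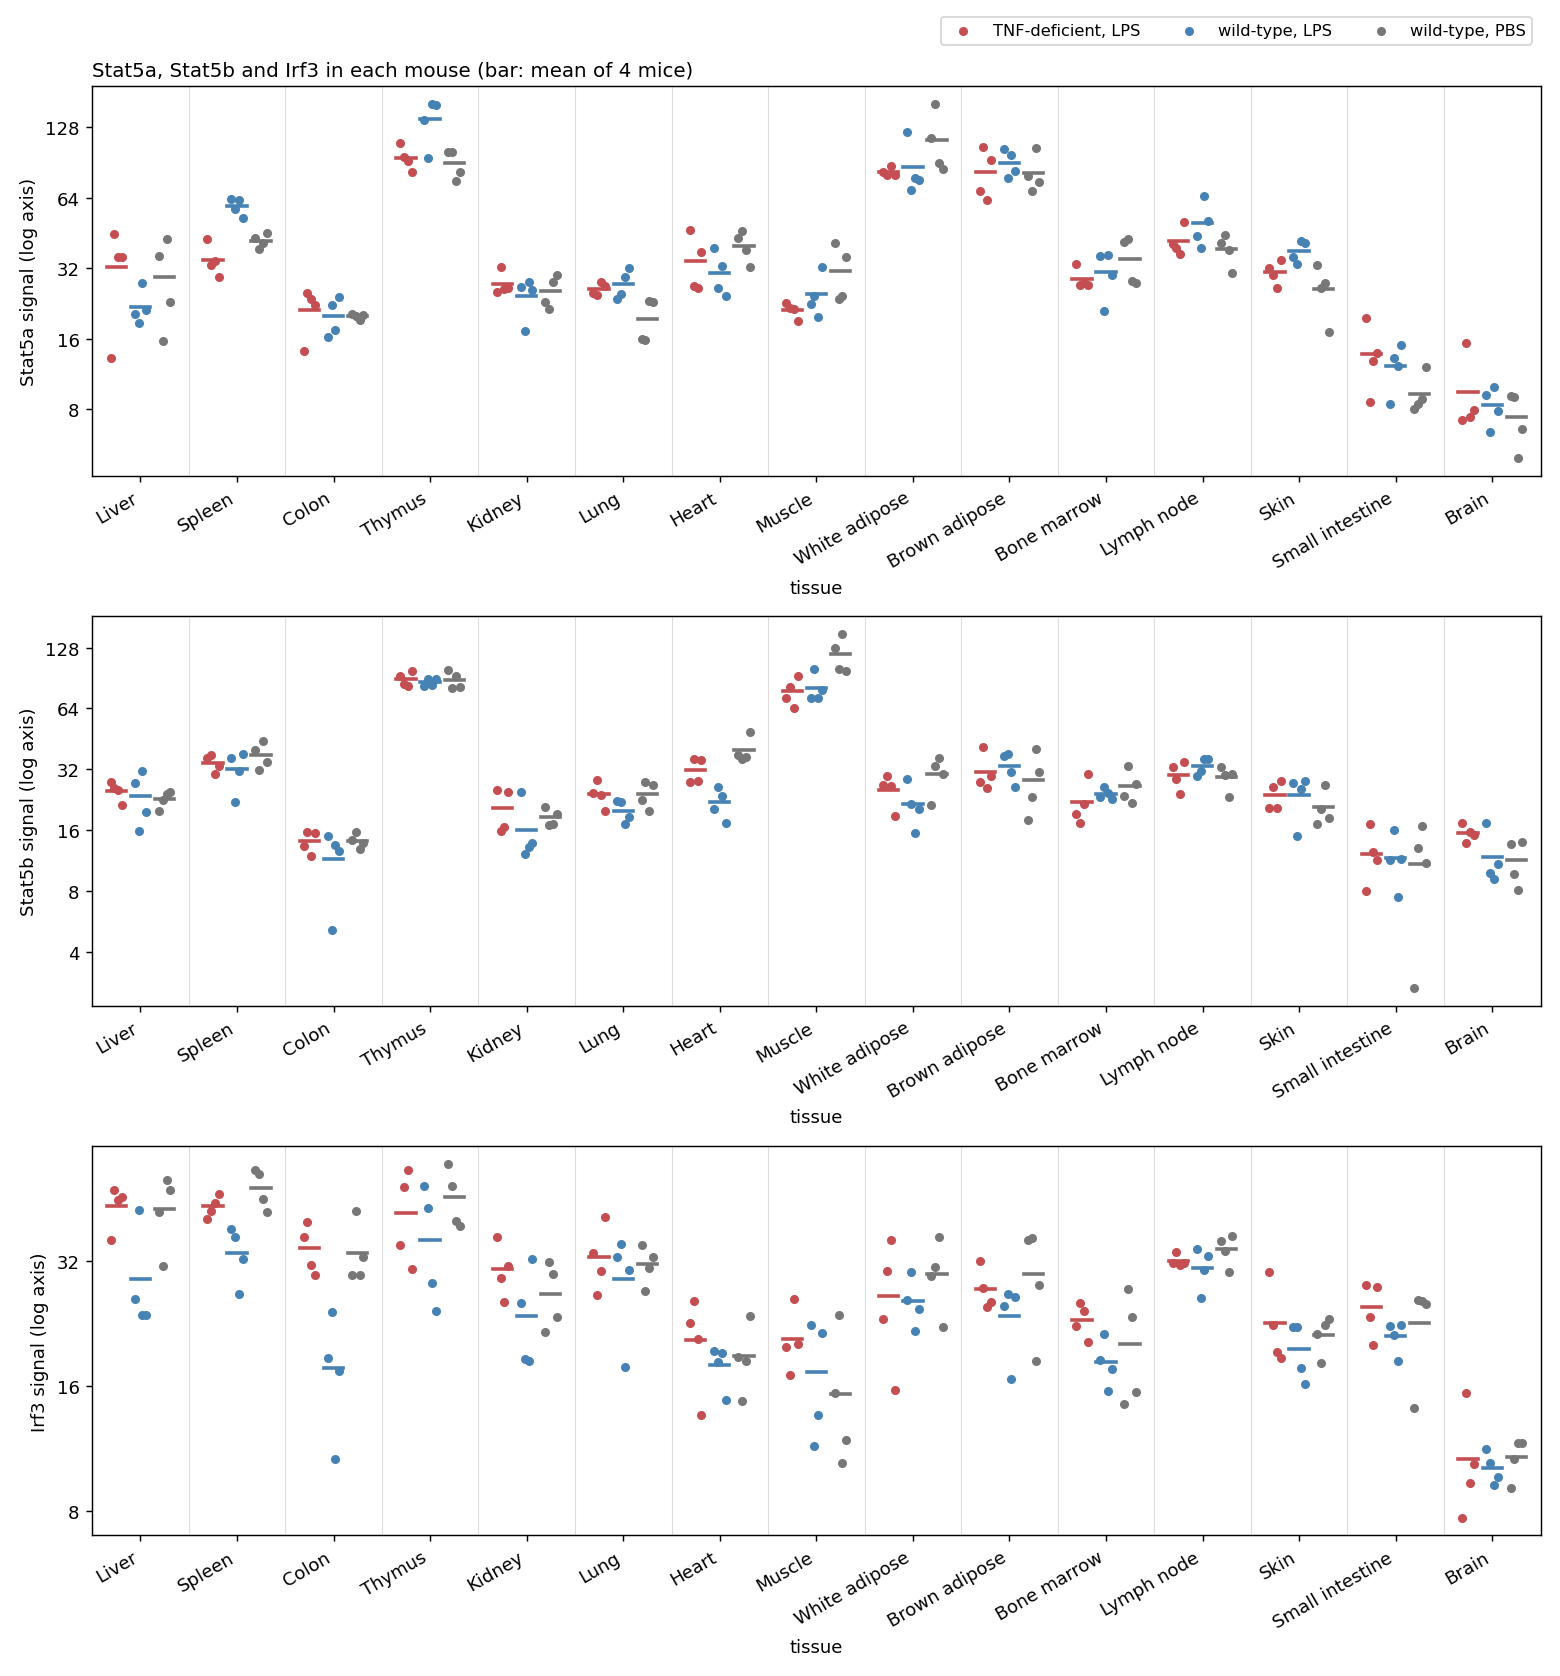
Signal (log axis) of Stat5a, Stat5b and Irf3 in each mouse by tissue, with TNF-deficient LPS mice in red, wild-type LPS mice in blue and PBS mice in grey; points are mice and bars the means of 4. Wild-type LPS mice stand above both other groups for Stat5a in spleen (52.3 to 63.1) and below both for Irf3 in colon (10.7 to 24.1).

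Stat6, which answers to interleukins 4 and 13, was not called in any tissue by limma in either comparison with all mice. Its LPS-against-PBS differences ran -0.40 in brown adipose tissue to 0.20 in colon, and edgeR called none. At an unadjusted p under 0.05, limma passed 1 tissue for LPS against PBS and 5 between the LPS groups. The share of all genes under that unadjusted threshold is not given here, so these counts are a description. In spleen, the tissue with the highest PBS level, Stat6 signal was 74.9, 71.7, 75.7 and 71.9 in TNF-deficient LPS mice, 56.0, 59.9, 56.5 and 54.1 in wild-type LPS mice and 62.1, 58.6, 78.4 and 72.6 in PBS mice. Wild-type LPS mice lay below all TNF-deficient mice (log2 difference 0.37, SE 0.15, adjusted p = 0.15), and the difference was not called. Between the LPS groups Stat6 was above 0 in 13 of 15 tissues; liver (0.58, adjusted p = 0.061) was called with edgeR and without mouse 6 (0.65 with SE 0.21 and adjusted p = 0.04).

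Whether the LPS response of each gene depended on tissue was tested in a joint fit of 45 groups, with a moderated F statistic (limma) that combined 14 differences between tissues. It passed for 8 of 10 members, against 65.3% of all genes, with adjusted p of 1.9e-16 for Irf9, 3.3e-12 for Stat3, 6.7e-11 for Irf8 and 9.3e-09 for Irf1. Irf2 (0.0013), Irf5 (0.0024), Stat5a (0.0024) and Stat5b (0.03) passed with larger adjusted p, and Irf3 (0.12) and Stat6 (0.56) did not. With the mouse as a replicate block the count was 8 too, against 66.2% of genes. For the difference between the LPS groups no member passed, against 25.6% of all genes. With the mouse as a replicate block 2 passed, Irf1 (adjusted p = 1.3e-06) and Stat3 (adjusted p = 0.0025), against 27.8% of genes.

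The order of tissues by level differed between members in PBS mice. For Irf5, Irf8, Irf9 and Stat6 spleen came first, as it did for Irf3, where it overlapped thymus. Irf2 was highest in inguinal lymph node, Stat3 in lung, Stat5a in white adipose tissue, Stat5b in muscle and Irf1 in small intestine. Brain came last for 8 of the 10, the others being Irf2, with kidney last, and Stat5b, with small intestine last. The ratio of the highest to the lowest tissue mean was 19.6 for Irf8, 18.3 for Irf5, 15.2 for Stat5a and 10.8 for Stat5b, and 3.18 for Stat3. Most neighbours in these orders were not separated: of 14 neighbouring pairs, ranges overlapped in 8 for Irf8 and in 11 to 14 for the other members.

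The tissue patterns of the LPS differences were compared as a description, over 15 tissues that came from the same mice. Among members the highest Pearson correlations were 0.83 between Irf8 and Stat3 and 0.79 between Irf1 and Irf2, and Stat5a and Stat5b had 0.60. Over 10081 genes, the genes most like Irf1 included Gbp6 (0.91) and Parp9 (0.89), those most like Irf2 were Trim12c (0.92), Zc3hav1 (0.90) and H2-K1 (0.90), and those most like Irf8 were H2-D1 (0.90), Rap1b (0.89) and Plin2 (0.88). Irf9 was most like Sidt2 (0.89), and Stat3 was most like Kdm1a (0.91), Shc1 (0.87) and Tlr2 (0.86). By PBS level over the 15 tissues, Irf8 was most like Pml (0.97) and Mzb1 (0.96), Irf5 was most like Sh3bp2 (0.97), and Irf1 was most like Parp14 (0.92).

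Other genes of the families and pathways were examined by list. Irf7, the amplifier of type I interferon production, was called higher with LPS in 14 tissues (median log2 difference 2.06) and Stat2, a subunit of ISGF3, in 12 (1.21). Irf4, a lymphocyte and myeloid factor, was called lower in 2 tissues.

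Of 4 Janus kinases, 8 of 60 tests were called higher and 4 lower with LPS, with Jak2 higher in 6 tissues and lower in 1 and Tyk2 lower in 1. Of 75 tests of interferon receptor genes, 16 were called higher and 8 lower; Ifnar2 was higher in 7 tissues and Il10rb, a shared receptor chain, lower in 4. None of 10 listed interferon genes was in the tables. Receptors that signal through STAT3, STAT5 or STAT6 had 101 higher and 26 lower calls in 315 tests. Osmr, the oncostatin M receptor, rose in 13 tissues, Crlf2 in 12 and Il15ra in 11, whereas the growth hormone receptor Ghr and the prolactin receptor Prlr fell in 5 tissues each. In liver the log2 difference was -2.49 for Ghr and -2.28 for Prlr. Lifr was lower in 5 tissues and higher in 1, the erythropoietin receptor Epor was lower in 3 and Il21r in 2.

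Inhibitors of JAK-STAT signalling had 85 higher and 7 lower calls in 255 tests. Socs3, which blocks interleukin-6 receptor signalling, rose in all 15 tissues (median 2.39), and Socs2 and Usp18 rose in 12 each. The phosphatase gene Ptpn6 was lower in 4 tissues and higher in 1, and Pias3 was lower in 1. Between the LPS groups this list had 27 lower and 4 higher calls, with Socs2 lower in TNF-deficient mice in 7 tissues and Socs3 in 6. Sensors, adaptors and kinases upstream of IRF3, IRF5 and IRF7 had 82 higher and 10 lower calls in 285 tests; Myd88 rose in 14 tissues, Tbk1 in 12 and Ddx58 in 11, Ddx58 falling in small intestine, and Mavs fell in 4, Slc15a4 in 2 and Irak4 in 1.

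Genes known to depend on these factors were counted in the same way. The IRF1 list (10 genes) had 104 higher and 7 lower calls in 150 tests, with a median log2 difference of 0.89; Gbp2, a guanylate-binding protein, rose in all 15 tissues, and the peptide transporter Tap1 and the checkpoint ligand Cd274 in 14 each. The ISGF3 list (16 genes) had 190 higher and 7 lower calls in 240 tests, with a median of 1.53. The ubiquitin-like modifier Isg15 was higher in 14 tissues, as were Ifit1 and Ifit3, and each was called lower in 1. In small intestine the log2 difference was -1.02 for Isg15 and -1.37 for Ifit1. The STAT3 list (14 genes) had 154 higher calls and 1 lower in 210 tests, with a median of 1.33; Timp1 and Lcn2 rose in all 15 tissues, as Socs3 did, and the lower call was Cebpd in bone marrow.

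Between the LPS groups, the STAT3 list had 51 lower calls and 1 higher in 210 tests (median -0.31), the IRF1 list 7 lower and 12 higher in 150 (median 0.04) and the ISGF3 list 17 lower and 8 higher in 240 (median -0.15). The STAT5 list had 21 lower and 1 higher in 84 (median -0.32) and the STAT6 list 14 lower and 2 higher in 135 (median -0.24). Lower calls were therefore not particular to the STAT3 list. Pim1, a kinase on the STAT3 and STAT5 lists, was lower in TNF-deficient mice in 9 tissues, Lcn2 in 8 and Junb in 7. The immunoproteasome gene Psmb9 was higher in 8 tissues. These genes, and the Socs2 and Socs3 counts between the LPS groups, were picked after their values were seen. With LPS the STAT5 list had 31 higher and 14 lower calls in 84 tests, where Socs2 and Pim1 rose in 12 tissues each and Igf1, the growth hormone effector, fell in 8, Igfals in 4 and Bcl6 in 1. The STAT6 list had 19 higher and 29 lower calls in 135 tests, with the lectins Mrc1 and Mgl2 lower in 8 tissues each and the chemokine Ccl17 higher in 7. Over all genes, 9.47% of tests were called higher and 10.4% lower with LPS, and 3.24% higher and 2.32% lower between the LPS groups. The lists share genes with each other, and many of their members answer to several factors.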

How the data were processed

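RNA from 15 tissues of 12 mice was read by 3′ tag sequencing, 4 mice per condition. The authors' deposited tables hold signal per gene and library that was scaled by the authors and is not further described; column sums ran 703690 to 1603067. The submitters' processing notes name FastQC, MultiQC, edgeR and the mm10 build; neither the aligner nor any use of molecular identifiers is named in them. Every value was a whole multiple of 1 count to within 0.1 counts in 100% of values, so counts were recovered, and total counts ran 311128 to 2573806 per library. Counting error limits low values, and 3′ tags do not scale with transcript length. The tests compare each gene only with itself. Marker sums add the signal of different genes, so genes with the most signal weigh most in them.

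Within each tissue, a gene was kept where 4 or more of its 12 libraries had signal of 1 or more, and log2(signal + 1) was fitted with limma 3.58.1 (trend, R 4.3.3) over all 12 libraries, with 9 residual degrees of freedom. The calls use Benjamini-Hochberg adjusted p under 0.05 over all genes of that tissue. Fold changes on this scale understate the change of low genes. Mice are separate animals per the labels, so p-values measure the spread between these mice. edgeR 4.0.16 quasi-likelihood tests on recovered counts, a pseudocount of 0.25, no filter, median-of-ratios rescaling, fits of 2 groups and leaving out each mouse were alternatives, and scripts were tested on simulated data. Numbers pair the libraries across tissues because the same mouse gave them, per the labels. The median correlation of deviations from group means over 105 tissue pairs was 0.015 within a mouse and -0.005 between mice. That correlation was taken over all genes above a floor of mean signal and does not describe single members. For Irf1, mouse 6 was the lowest wild-type LPS mouse in 15 tissues.

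The 10 genes and all lists were chosen with earlier results of these data known. All 10 genes are described. From each other list the text names up to 3 genes called in the most tissues with LPS, and genes whose calls run against most of their list. Likeness is the Pearson correlation over 15 tissues, with up to 3 genes per member. Some genes that these rules select are not reported here.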

Additional observations from a re-analysis of the deposited data

Results flagged for a closer look

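Among the groups behind called differences, 5 groups of 4 mice held 1 mouse that lay far from the other 3. Stat3 in small intestine was 109 in wild-type LPS mouse 6, the lowest of its group, and Stat3 in thymus was 224 in wild-type LPS mouse 8, the highest. Among PBS mice, Irf1 in colon was 107 in mouse 2, Irf8 in bone marrow was 189 in mouse 4 and Stat5b in heart was 48.8 in mouse 4, each the highest of its group. Over all members, tissues and conditions 23 of 450 groups held such a mouse, and chance marks about 1 in 20 groups.

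The LPS difference varied among the 15 tissues for 8 members (limma, moderated F). The same test passed for 65.3% of all 13817 genes tested, so passing it does not by itself set these members apart. The adjusted p of this moderated F test was 9.3e-09 for Irf1, 0.0013 for Irf2, 0.0024 for Irf5 and 6.7e-11 for Irf8. It was 1.9e-16 for Irf9, 3.3e-12 for Stat3, 0.0024 for Stat5a and 0.03 for Stat5b.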

How the results depend on the processing

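For LPS against PBS, 56 tests were called higher with all mice and 48 to 61 when 1 mouse was left out; 5 were called lower and 2 to 6 when 1 mouse was left out. For TNF-deficient LPS against wild-type LPS, the 1 higher call became 2 with 2 groups only, 3 with edgeR and 1 to 4 when 1 mouse was left out. The 10 lower calls became 6 with 2 groups only, 17 with edgeR and 5 to 23 when 1 mouse was left out, with 23 without mouse 6, 5 without mouse 7, 5 without mouse 8 and 6 without mouse 11. With the mouse as a replicate block, the count of members whose LPS difference varied among tissues was 8, as without it, and that for the difference between the LPS groups was 2 in place of 0. Leaving out 1 mouse gave 0 to 3 members for the difference between the LPS groups, with 3 without mouse 6. Shares of calls over all genes are given above for all mice, without mouse 6 and with edgeR. For the other runs the counts of calls describe the members only. The cause of these shifts was not tested. No called difference changed sign under any alternative run. Low counts, down to 3 for a member in a library, limit what could be called.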
